A study of Mus musculus with 12 samples.

Results

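The transcripts described are those of the 3 D-type cyclins (Ccnd1, Ccnd2, Ccnd3), their 2 partner kinases (Cdk4, Cdk6) and 5 inhibitors of G1 kinases (Cdkn1a, Cdkn1b, Cdkn2a, Cdkn2c, Cdkn2d), in mouse bone marrow carrying mutant SETBP1, mutant NRAS, both or neither. They were taken by symbol, which gave 10 of the 19910 genes in the count table. D-type cyclins are made in response to growth factor signalling, bind Cdk4 or Cdk6 and start the phosphorylation of the retinoblastoma protein, which releases E2F transcription factors and lets a cell pass from G1 into S phase. The INK4 inhibitors (the Cdkn2 genes) bind Cdk4 and Cdk6 and keep them from the cyclins, whereas the CIP/KIP inhibitors (Cdkn1a for p21, Cdkn1b for p27) chiefly hold back the Cdk2 complexes. In blood-forming tissue D-type cyclins overlap in function, and NRAS acts on them through the MAPK pathway.

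The 12 libraries fell into 4 groups of 3. Marrow from female C57BL/6J mice aged 6 to 10 weeks was transduced with retrovirus packaged in 293T17 cells, a human embryonic kidney line. Every group carried a pair of vectors: 2 empty ones, SETBP1 D868N with an empty one, an empty one with NRAS G12D, or SETBP1 D868N with NRAS G12D. These groups are called empty, SETBP1, NRAS and both. The labels call all of them leukemia cells, the empty group included, and do not name the promoter of the vectors, a sort or the time in culture or in a host. Nor do they state that the replicates are separate cultures, transductions or animals, so p-values measure only the spread between these libraries, which may be technical. The title of the series asks whether mutant SETBP1 strengthens MAPK activation by NRAS, and the D-type cyclins are textbook outputs of that pathway.

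Total counts per library were between 7085894 and 8864919, from RNA amplified with a kit for very small inputs. Nras counts were 626 to 741 in the 6 libraries without the NRAS vector and 10517 to 13502 in the 6 with it. Setbp1 counts were 0 in the 6 libraries without the SETBP1 vector and 5 to 17 in the others, so both introduced genes followed the labels. SETBP1 replicate 3 stood apart: its log2 CPM (counts scaled to the library total) correlated at 0.946 and 0.953 with the other libraries of its group, against 0.984 to 0.991 for all other pairs within groups. It is therefore left out in a second value wherever it changes a result. Markers of other cell types also moved with the groups. The summed normalised CPM of late neutrophil genes (11 of 12 in the table) was 11271 to 12745 with empty vectors, 5208 to 7373 with SETBP1, 5954 to 7604 with NRAS and 2064 to 2587 with both. That of 8 myeloid progenitor genes was 23833 to 26448, 17683 to 19457, 9624 to 10995 and 5634 to 6296 in the same order. Mast cell and basophil genes (10) summed to 3138 to 3228, 1698 to 2433, 733 to 1240 and 409 to 596, again in that order. Monocyte and macrophage genes (12) summed to 4507 to 4998, 5258 to 7161, 4144 to 4511 and 4128 to 4519, with the SETBP1 group above the others. Megakaryocyte genes (7) summed to 214 to 256, 290 to 613, 142 to 201 and 243 to 270, the highest again in the SETBP1 group. Most of the sum in that group lay in Pf4 (138 to 369) and Ppbp (62.6 to 151). Itga2b was at 77.3 to 109 with empty vectors, 64.3 to 65.9 with SETBP1 and 22 to 29.9 with both. For SETBP1 against empty 3 of the 7 genes had a positive log2 change and 4 a negative one. For both against empty these numbers were 2 and 5. Single genes did not all follow these sums. Of the mast cell and basophil genes, Hdc was at 216 to 230 with empty vectors and 237 to 407 with NRAS. Tpsb2 was at 5.8 to 9.78 with empty vectors and 7.84 to 15.7 with SETBP1. In each of these 2 comparisons 8 of the 9 tested genes of that list had a negative log2 change. Cd14 was at 25.9 to 38.2 with empty vectors and 63.7 to 147 with SETBP1. It was at 346 to 365 with NRAS and 287 to 418 with both. Mrc1 was highest with both (101 to 144), and C1qa, C1qb and C1qc with SETBP1. SETBP1 replicate 3 was the highest of its group for Cd14 (147) and C1qa (162). Cd34, of the progenitor list, was at 92.5 to 107 with empty vectors, 172 to 267 with NRAS and 259 to 283 with both. Erythroid (4 of 8 with a count), B-cell, T-cell and stromal markers summed to at most 23.5 normalised CPM, and 4 globin genes, Pax5, Cd3e, Cd8a, Col3a1 and Pdgfra were at 0 in every library. The part of cell composition in the results below was not tested. In bulk RNA, fewer cells of a type and less RNA per cell cannot be told apart.

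Of the 10 genes, 9 passed the filter on low counts, and Cdkn2a did not. Changes were tested with the edgeR quasi-likelihood test on all 12 libraries, with Benjamini-Hochberg adjustment over all 10993 tested genes, and a gene was called at an adjusted p under 0.05. For SETBP1 against empty, 2 of 9 (22.2%) were called, 1 higher and 1 lower, where 14.9% of all genes were (8.31% higher, 6.55% lower). For NRAS against empty, 5 of 9 (55.6%) were called, 4 higher and 1 lower, where 32.5% of all genes were (17.0% higher, 15.5% lower). For both against empty, 4 of 9 (44.4%) were called, all higher, where 40.6% of all genes were (20.8% higher, 19.8% lower). For both against SETBP1, 7 of 9 (77.8%) were called, 6 higher and 1 lower, where 42.4% of all genes were (20.9% higher, 21.5% lower). For both against NRAS, 1 of 9 (11.1%) was called, higher, where 1.91% of all genes were (0.528% higher, 1.38% lower). With 9 genes, 1 gene moves a share by 11.1 percentage points, and the shares for SETBP1 and for both against empty lie close to those of all genes. The comparisons with empty share its 3 libraries, and the 3 comparisons of the both group, that with empty included, share its own. Values per library below are normalised CPM (counts scaled to the library total with a trimmed-mean, or TMM, correction), in the order of replicates 1, 2 and 3.

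**Figure D1:**
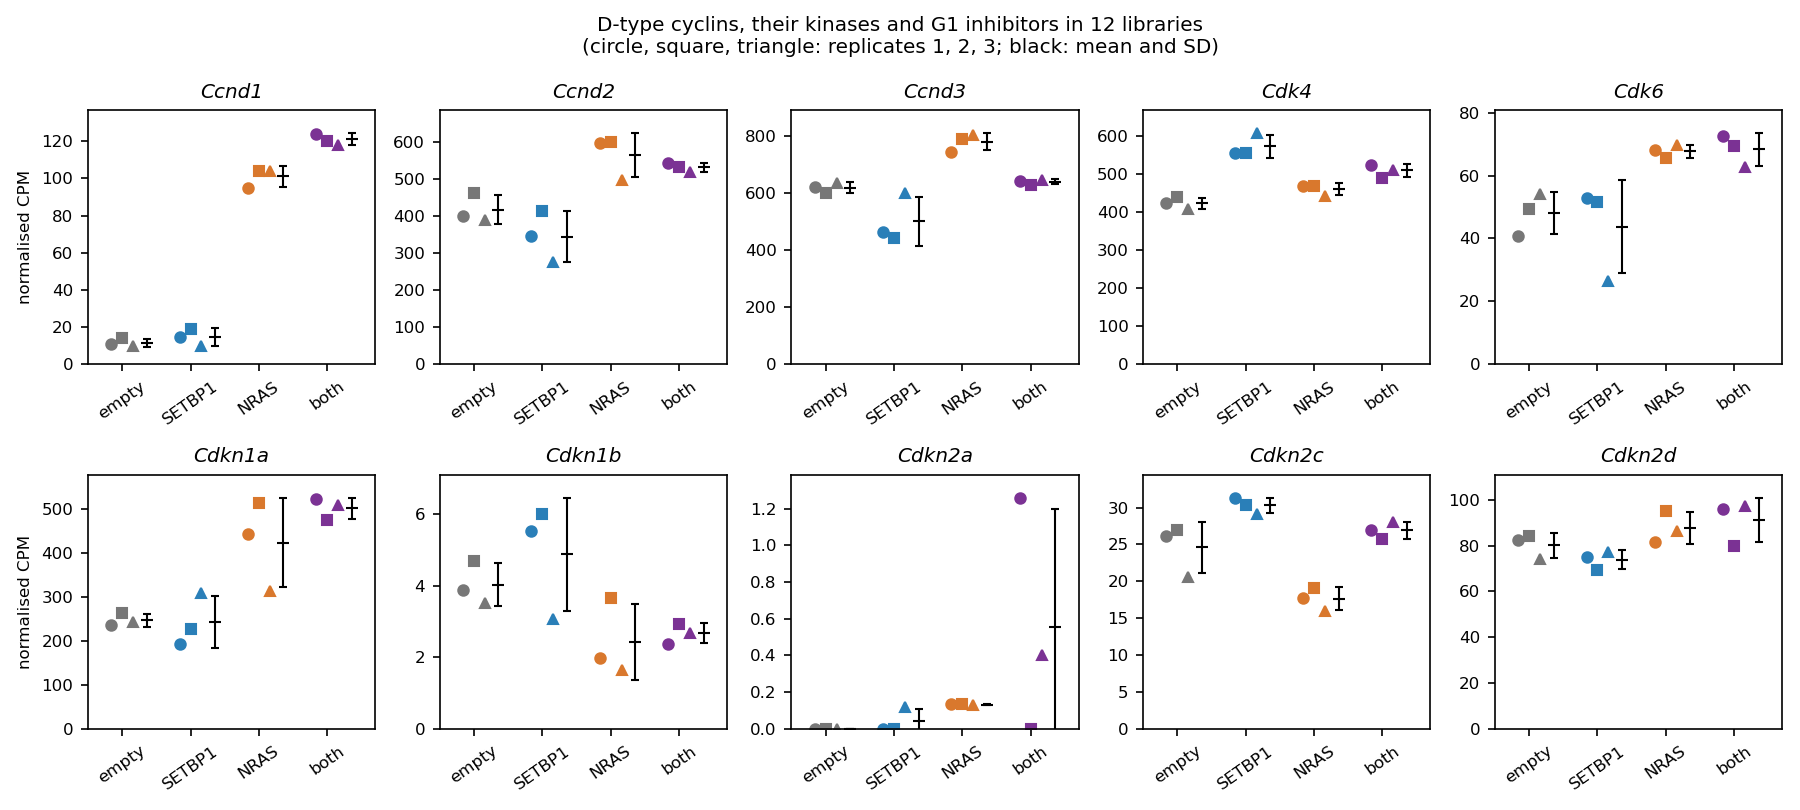
Normalised CPM (vertical axis, from 0, a scale of its own for each gene) of the 10 genes in the 4 groups, with a circle, square and triangle for replicates 1, 2 and 3 and the mean and SD in black. Ccnd1 stands at 9.72 to 19.2 in the 6 libraries without the NRAS vector and at 95 to 124 in the 6 with it.

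Ccnd1, the cyclin D1 gene and the D-type cyclin most tied to mitogen signalling, changed far more than the other 8 tested genes, on either background. Its normalised CPM was 11, 14 and 9.72 with empty vectors, 14.8, 19.2 and 9.94 with SETBP1, 95, 104 and 104 with NRAS, and 124, 120 and 118 with both. Every library with the NRAS vector was above every library without it, and all 3 libraries with both mutants were above all 3 with NRAS alone. Behind these values lay 72 to 110 counts with empty vectors and 875 to 937 with both, at chr7:144929931-144939925 (GRCm38, minus strand). Relative to empty vectors the log2 fold change was 3.13 (SE 0.18) with NRAS, an 8.76-fold rise, at an adjusted p of 3.18e-08. With both mutants it was 3.38 (SE 0.19), a 10.4-fold rise, at an adjusted p of 9.32e-09, and against SETBP1 it was 3.04 (SE 0.18; adjusted p = 2.79e-08). These 3 calls held under every other setting tried and with each library left out.

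The SETBP1 vector by itself left Ccnd1 in overlapping ranges. SETBP1 replicate 3 lay among the empty libraries, and the other 2 lay above them. The log2 fold change was 0.34 (SE 0.20; 95% interval -0.09 to 0.76; adjusted p = 0.242), and 0.55 without SETBP1 replicate 3, where the adjusted p was 0.0182. Without SETBP1 replicate 2, the highest of that group, it was 0.11 (adjusted p = 0.693). Adding SETBP1 to NRAS gave 0.25 (SE 0.16; interval -0.09 to 0.59; adjusted p = 0.652), although the libraries did not overlap. When only these 2 groups were fitted the adjusted p was 0.0325, and under the other settings the difference was not called. The ranking of the group means was empty, SETBP1, NRAS, both, lowest first, and neither step between neighbours on the same NRAS background passed the test on all 12 libraries.

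Ccnd2, the cyclin D2 gene, which is induced by cytokines in haematopoietic cells, was higher in the libraries with NRAS by a much smaller factor. It stood at 400, 462 and 388 normalised CPM with empty vectors, 346, 412 and 275 with SETBP1, 596, 599 and 497 with NRAS, and 542, 533 and 518 with both. The 6 libraries with the NRAS vector were above the 6 without it, and the NRAS and both groups overlapped, as did empty and SETBP1. The rise over empty vectors was 0.44 on the log2 scale with NRAS (SE 0.12; adjusted p = 0.015) and 0.35 with both (SE 0.12; adjusted p = 0.037). It was 0.62 for both against SETBP1 (SE 0.12; adjusted p = 0.00126), a call that held under every setting and without each library. The first call was lost without empty replicate 1 (adjusted p = 0.0647) or 3 (0.0705) or NRAS replicate 1 (0.058) or 2 (0.0603), and with library-size scaling (0.0769). The second was lost without empty replicate 1 or 3 or any library with both mutants, and with library-size (0.215) or upper-quartile (0.0992) scaling. SETBP1 alone gave -0.28 (SE 0.12; adjusted p = 0.139), which became -0.14 without its replicate 3 and was called without its replicate 2 (adjusted p = 0.0358).

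Ccnd3, the cyclin D3 gene, which is used widely in lymphoid and myeloid precursors, was higher with NRAS and lower with SETBP1. The normalised CPM was 621, 600 and 638 with empty vectors, 464, 443 and 601 with SETBP1, 747, 791 and 804 with NRAS, and 644, 630 and 648 with both. The NRAS libraries were above all others, the both group overlapped with empty, and SETBP1 replicate 3 was the one SETBP1 library that reached the empty range. Ccnd3 rose by 0.33 with NRAS (SE 0.10; adjusted p = 0.0155), a call that was lost without empty replicate 1 (0.0529) or 2 (0.0625) or NRAS replicate 3 (0.0567). It fell by 0.30 with SETBP1 (SE 0.10; adjusted p = 0.0494), a call near the threshold. Without SETBP1 replicate 3 the difference was -0.45 at an adjusted p of 7.21e-05, whereas leaving out any of the other 11 libraries, scaling by median ratios (0.0503) or fitting only the 2 groups (0.185) lost it.

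With both mutants Ccnd3 was 0.05 above empty on the log2 scale (SE 0.10; interval -0.16 to 0.25; adjusted p = 0.718). Its sign turned with library-size (-0.07) and upper-quartile (-0.02) scaling. Against SETBP1 it rose by 0.35 (SE 0.10; adjusted p = 0.00988), which was lost without SETBP1 replicate 2 (0.0512) and when only these groups were fitted (0.0703). Against NRAS it was lower by a log2 difference of -0.29 (SE 0.10; adjusted p = 0.185). All 3 libraries of the both group lay below all 3 of the NRAS group. That difference was called without SETBP1 replicate 3 (adjusted p = 0.00146), when only the 2 groups were fitted (0.00188), with library-size scaling (0.0486) and after removal of a trend on transcript length (0.0276). It holds no SETBP1 library and stayed at -0.29 without replicate 3. The spread is shared by all groups, and calls over all genes rose from 210 to 836 in that fit. The SETBP1 change was thus -0.30 without NRAS and -0.29 with it, and the test of the difference between them gave 0.02 (SE 0.13; interval -0.27 to 0.30; adjusted p = 0.969).

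The summed normalised CPM of the 3 D-type cyclins was 1032, 1076 and 1037 with empty vectors, 825, 874 and 887 with SETBP1, 1439, 1494 and 1406 with NRAS, and 1310, 1283 and 1283 with both. No group overlapped with another in this sum, and the SETBP1 groups lay below their counterparts on either background. The sum was not tested, and how many other genes separate the groups in this way was not counted. For SETBP1 against empty Ccnd3 was called near the threshold (adjusted p = 0.0494) and Ccnd2 was not called (0.139). With the length trend removed the Ccnd2 change was -0.02. For both against NRAS neither was called (0.919 for Ccnd2 and 0.185 for Ccnd3). Levels of different genes can be set side by side only per length. Per kilobase, Ccnd3 was above Ccnd2 and Ccnd2 above Ccnd1 in each of the 12 libraries, whether the median or the longest annotated transcript of each gene was used. With median lengths the share of Ccnd1 among the 3 cyclins was 0.275% ± 0.0473 (SD, n = 3) with empty vectors, 0.43% ± 0.142 with SETBP1, 1.84% ± 0.108 with NRAS and 2.51% ± 0.0434 with both. With the longest transcripts the means were 0.853%, 1.35%, 5.57% and 7.69%. The level of the share therefore rested on the length used, but the order of the groups did not. Ccnd1 remained the least abundant D-type cyclin per length in the groups where it rose most.

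**Figure D2:**
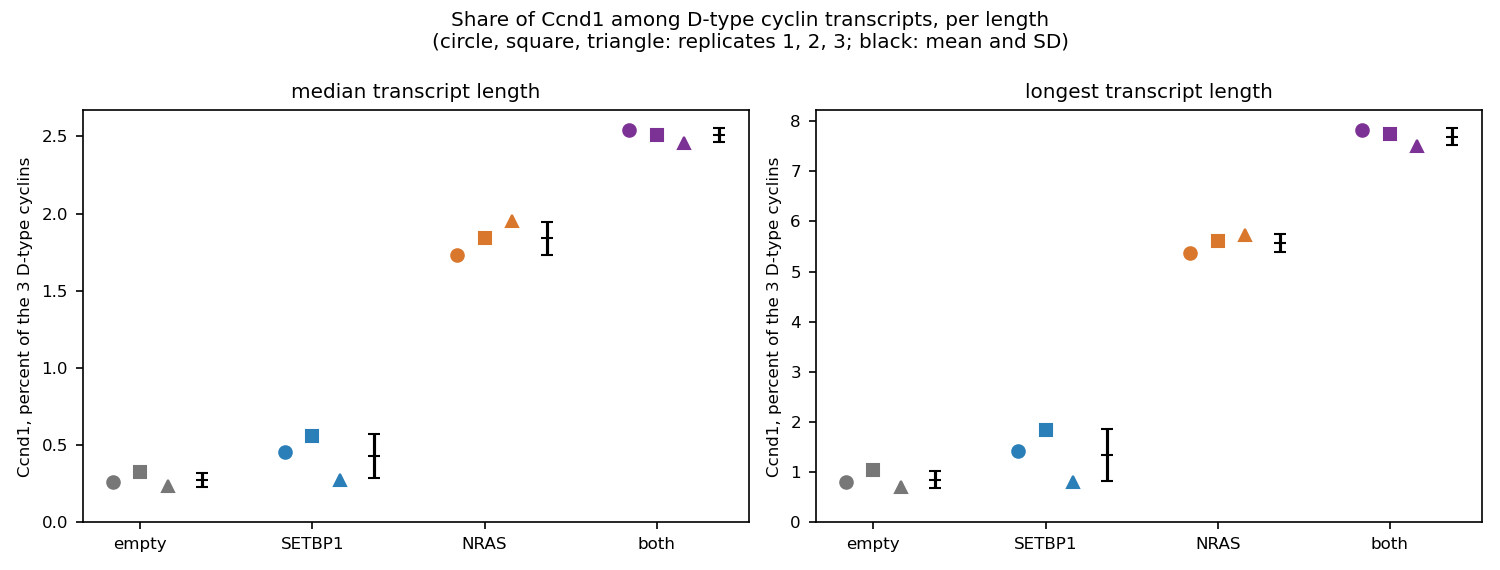
Share of Ccnd1 among the 3 D-type cyclins in percent, from reads per kilobase with the median (left) or the longest (right) annotated transcript length, for the 4 groups (points are libraries, black marks the mean and SD). With median lengths the means run from 0.275% with empty vectors to 2.51% with both mutants.

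Cdk4, the catalytic partner of the D-type cyclins, was the only gene of the set called higher with SETBP1 alone. It stood at 423, 439 and 409 normalised CPM with empty vectors, 469, 470 and 443 with NRAS, 525, 491 and 512 with both, and 555, 556 and 607 with SETBP1. No pair of groups overlapped, in that order. The rise with SETBP1 was 0.44 on the log2 scale (SE 0.06; adjusted p = 0.00205), or 1.35-fold, and it was called under every setting and without each library. Without SETBP1 replicate 3 it was 0.39 (adjusted p = 0.000272), and with the length trend removed it was 0.32 (adjusted p = 0.00273). With only the SETBP1 and empty groups fitted the adjusted p was 0.0465, near the threshold. With both mutants Cdk4 rose by 0.27 over empty (SE 0.06; adjusted p = 0.00454), and by 0.14 with library-size scaling (adjusted p = 0.0459). NRAS alone gave 0.12 (SE 0.06; interval -0.02 to 0.26; adjusted p = 0.17).

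Cdk4 was lower with both mutants than with SETBP1 alone by a log2 difference of -0.17 (SE 0.06; adjusted p = 0.0493). This call sat at the threshold and was lost without SETBP1 replicate 3, empty replicate 1, NRAS replicate 1 or 2 or any library with both mutants (adjusted p from 0.0557 to 0.165). It was also lost with no filter (0.115), with only these groups fitted (0.128), with the replicate number as a block (0.0777) and with the length trend removed (0.372). The SETBP1 change in Cdk4 was 0.15 on the NRAS background (SE 0.06; interval 0.01 to 0.28; adjusted p = 0.388), against 0.44 without NRAS. The test of that difference gave -0.29 (SE 0.09; interval -0.49 to -0.09), with an adjusted p of 0.268.

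Cdk6, the second partner kinase, which is prominent in haematopoietic progenitors, was higher in the libraries with the NRAS vector, a difference that passed the test against SETBP1 but not against empty. Its normalised CPM was 40.8, 49.3 and 54.3 with empty vectors, 52.9, 51.7 and 26.6 with SETBP1, 68.2, 65.6 and 69.7 with NRAS, and 72.7, 69.4 and 62.7 with both. The 6 libraries with the NRAS vector were above the 6 without it, and the lowest value was that of SETBP1 replicate 3. The log2 fold change over empty was 0.50 with NRAS (SE 0.20; interval 0.07 to 0.92; adjusted p = 0.0684) and 0.51 with both (SE 0.20; interval 0.08 to 0.93; adjusted p = 0.0545), neither called. Without SETBP1 replicate 3 both were called, at adjusted p-values of 0.000358 and 0.000238, and without SETBP1 replicate 1 at 0.0499 and 0.0389. Neither comparison holds a SETBP1 library, but all groups share one estimate of the spread. Without SETBP1 replicate 3 the log2 changes stayed at 0.50 and 0.51, and calls over all genes rose to 47% and 53.7%. The 2 Cdk6 changes were also called by DESeq2 (0.0489 and 0.0368), when only the 2 groups compared were fitted (0.000978 and 0.000306) and with the length trend removed (0.00281 and 0.000783). The change with both was called by limma-voom (0.0476) and with no filter (0.0404) too. Of 9 settings other than leaving out a library, 3 and 5 thus called these changes. The highest adjusted p over all other fits was 0.236 and 0.199. Cdk6 rose by 0.64 for both against SETBP1 (SE 0.20; adjusted p = 0.0182), which was lost without replicate 1 (0.0612) or 2 (0.0514) of the both group, with library-size scaling (0.0594) and with only these groups fitted (0.0791). Without SETBP1 replicate 3 that rise was 0.39 (adjusted p = 0.00785). Relative to NRAS alone the both group gave 0.01 (interval -0.41 to 0.43; adjusted p = 0.998), and for SETBP1 against empty -0.14 (adjusted p = 0.654), or 0.12 without SETBP1 replicate 3. The share of Cdk6 in Cdk4 plus Cdk6 per length was 14.8%, 10.5%, 18.4% and 17% with empty vectors, SETBP1, NRAS and both by median lengths, and at most 2.56% by longest lengths.

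The promoters of the 2 kinases are printed because, of these partners of the same cyclins, only Cdk4 was called for SETBP1 alone, and that of Cdkn2c because it was the only gene of the set called for both against NRAS. Each is the 250 bases before the RefSeq start site on GRCm38.p6, 5′ to 3′ on the gene's strand. Of the 10 genes, 8 matched an entry, and Ccnd1 and Ccnd2 did not. The windows are chr10:127063285-127063534 (plus strand) for Cdk4, chr5:3343643-3343892 (plus strand) for Cdk6 and chr4:109666757-109667006 (minus strand) for Cdkn2c. Capitals mark matches, on either strand, to CACGTG (E-box), TGANTCA (AP-1), CCGGAA (ETS), TTTNNCGC (E2F) and GGGCGG (SP1), which did not overlap one another.
Cdk4: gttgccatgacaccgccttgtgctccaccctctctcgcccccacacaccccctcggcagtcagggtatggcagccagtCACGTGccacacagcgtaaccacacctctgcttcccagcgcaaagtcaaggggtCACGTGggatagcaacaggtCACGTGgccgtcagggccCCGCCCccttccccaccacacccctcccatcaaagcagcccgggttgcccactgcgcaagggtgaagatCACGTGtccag
Cdk6: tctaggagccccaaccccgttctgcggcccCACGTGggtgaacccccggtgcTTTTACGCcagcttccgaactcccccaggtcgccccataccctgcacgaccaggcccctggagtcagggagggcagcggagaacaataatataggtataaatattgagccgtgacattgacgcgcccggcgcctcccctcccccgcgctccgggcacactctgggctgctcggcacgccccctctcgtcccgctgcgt
Cdkn2c: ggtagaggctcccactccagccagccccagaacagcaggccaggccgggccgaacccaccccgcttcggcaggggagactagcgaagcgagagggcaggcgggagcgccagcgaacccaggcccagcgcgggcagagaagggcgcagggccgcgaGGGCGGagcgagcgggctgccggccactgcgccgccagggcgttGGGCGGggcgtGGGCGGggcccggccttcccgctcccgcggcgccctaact
The Cdk4 window held 4 E-boxes and 1 SP1 match, the last E-box ending 6 bases before the start. The Cdk6 window held 1 E-box and 1 E2F match, and the Cdkn2c window 3 SP1 matches. Of 27025 promoter windows of this length, 6.05% held an E-box, 6.87% an AP-1 match, 12.2% an ETS match, 4.39% an E2F match and 32.9% an SP1 match. The E-box was added to the search after the letters had been seen, and a match is a run of letters, not a measured binding site.

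Among the CIP/KIP inhibitors, Cdkn1a (p21, which p53 and MAPK signalling can both induce) rose with NRAS and Cdkn1b did not pass the test. Cdkn1a stood at 235, 263 and 242 normalised CPM with empty vectors, 193, 228 and 309 with SETBP1, 444, 514 and 313 with NRAS, and 522, 476 and 509 with both. NRAS replicate 3 came close to SETBP1 replicate 3, and still all libraries with the NRAS vector were above all without it. The rise over empty was 0.78 on the log2 scale with NRAS (SE 0.17; adjusted p = 0.00309), or 1.72-fold, and 1.03 with both (SE 0.17; adjusted p = 0.00031), or 2.04-fold. Against SETBP1 it was 1.05 (SE 0.17; adjusted p = 0.000289). These 3 calls held under every setting and without each library. SETBP1 gave -0.02 alone (interval -0.39 to 0.35; adjusted p = 0.947), or -0.23 without its replicate 3, and 0.25 on the NRAS background (interval -0.12 to 0.61; adjusted p = 0.7).

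Cdkn1b (p27, an inhibitor that accumulates in resting cells and is governed largely through protein stability) was weakly detected, at 13 to 46 counts a library. Its normalised CPM was 3.87, 4.7 and 3.51 with empty vectors, 5.54, 6.01 and 3.08 with SETBP1, 1.98, 3.65 and 1.65 with NRAS, and 2.38, 2.94 and 2.69 with both. The both group lay below the empty and the SETBP1 groups, and the NRAS group overlapped with each of the others. The log2 fold changes were -0.73 with NRAS (SE 0.36; interval -1.50 to 0.04; adjusted p = 0.135), -0.59 with both (SE 0.35; adjusted p = 0.205) and -0.86 for both against SETBP1 (SE 0.35; interval -1.61 to -0.11; adjusted p = 0.0622). The last was called without SETBP1 replicate 3 (-1.10; adjusted p = 0.00892), with the block (0.0499), with library-size scaling (0.0493) and with the length trend removed (0.0277). The first was called only without NRAS replicate 2 (-1.14; adjusted p = 0.0477). SETBP1 alone gave 0.27 (SE 0.33; interval -0.45 to 0.99; adjusted p = 0.591), and 0.52 without its replicate 3 (adjusted p = 0.274).

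Cdkn2c (p18, an INK4 inhibitor of Cdk4 and Cdk6) was the gene of the set that fell with NRAS. It stood at 26.2, 27 and 20.6 normalised CPM with empty vectors, 31.3, 30.3 and 29.2 with SETBP1, 17.7, 19.1 and 16 with NRAS, and 26.9, 25.7 and 28.1 with both. The NRAS libraries were below all others, the SETBP1 libraries above all others, and the both group lay within or just above the empty range. It fell by 0.49 on the log2 scale with NRAS (SE 0.13; adjusted p = 0.0119), a call lost without empty replicate 1 (0.0511) or 2 (0.0545) or NRAS replicate 3 (0.0542). It rose by 0.61 for both against NRAS (SE 0.13; adjusted p = 0.0309), or 1.53-fold. This call was lost without empty replicate 1 (0.0517), any NRAS library (0.0721 to 0.158) or any library with both mutants (0.0803 to 0.131), with a log2 change of 0.55 to 0.68 over the 12 libraries left out. With SETBP1 alone the change was 0.30 (SE 0.13; interval 0.02 to 0.57; adjusted p = 0.128), and the difference between 0.61 and 0.30 was 0.32 (SE 0.18; interval -0.08 to 0.71; adjusted p = 0.478). Both against empty gave 0.12 (interval -0.15 to 0.40; adjusted p = 0.471).

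Cdkn2d (p19 of the INK4 family) stood at 82.3, 84.2 and 74 normalised CPM with empty vectors, 74.9, 69.4 and 77.4 with SETBP1, 81.4, 95.2 and 86.2 with NRAS, and 96.1, 80 and 97.4 with both. The groups overlapped except that the SETBP1 libraries were below all libraries with the NRAS vector. It rose by 0.30 for both against SETBP1 (SE 0.10; adjusted p = 0.0272), which was lost without SETBP1 replicate 2 or replicate 1 or 3 of the both group, with library-size (0.0724) or upper-quartile (0.0537) scaling and with only these groups fitted (0.0914). The other 4 comparisons gave -0.12 to 0.18, with adjusted p-values from 0.161 to 0.94, and of them SETBP1 against empty was called with the length trend removed (0.0384).

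Cdkn2a, whose locus encodes the INK4 protein p16 and, from another start and reading frame, the p53 activator p19Arf, was close to undetected. Its counts were 0, 0 and 0 with empty vectors, 0, 0 and 1 with SETBP1, 1, 1 and 1 with NRAS, and 9, 0 and 3 with both. The 9 counts of 1 library with both mutants were the highest, and another library of that group had 0. A symbol count does not tell the 2 transcripts apart, and the gene was not tested. Cdkn2b (p15), which neighbours it on chromosome 4 and belongs to the list of other G1 to S genes, had 1, 5 and 2 counts with empty vectors, 6, 5 and 12 with SETBP1, 54, 52 and 62 with NRAS, and 72, 73 and 60 with both. All libraries with the NRAS vector had at least 52 counts and all without it at most 12. The log2 fold change of Cdkn2b was 4.41 with NRAS (SE 0.43; adjusted p = 3.83e-06) and 3.26 for both against SETBP1 (SE 0.36; adjusted p = 9.17e-06), from the low counts given. Of the INK4 genes, Cdkn2b was thus called higher and Cdkn2c lower in the NRAS group relative to empty.

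**Figure D3:**
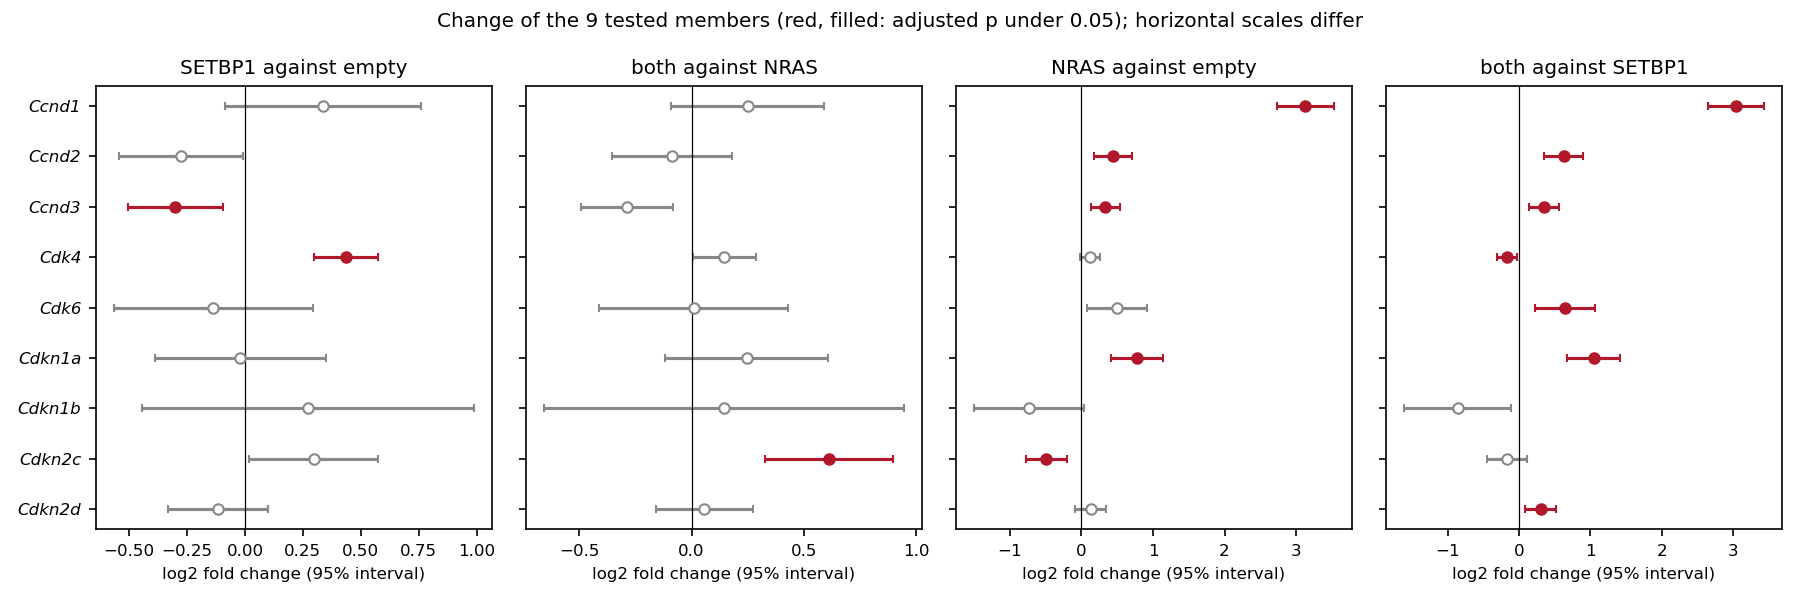
Log2 fold change (horizontal axis, scales differ between panels) with its 95% interval for the 9 tested genes: SETBP1 added without and with NRAS (left pair) and NRAS added without and with SETBP1 (right pair); red filled points were called. Ccnd1 stands at 3.13 and 3.04 in the right pair, and Cdkn2c is the only filled point for both against NRAS.

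Whether SETBP1 acted differently with NRAS present was tested gene by gene as an interaction, the SETBP1 change with NRAS minus that without it. None of the 9 genes was called by edgeR, where 0.0455% of all genes (5) were (0.00910% higher, 0.0364% lower), and none was called by DESeq2 or limma-voom. By edgeR 1 of the 9, Cdk4, was under 0.05 before adjustment. The intervals spanned from -0.63 to 0.45 for Ccnd1, -0.19 to 0.57 for Ccnd2 and -0.25 to 0.78 for Cdkn1a. The median log2 change over the 9 genes was -0.02 with SETBP1 and 0.33 with NRAS, each against empty, where it was -0.01 over all genes in both cases. Over the 9 genes it was 0.14 for both against NRAS and 0.35 for both against SETBP1, where it was 0.00 over all genes. Under library-size scaling the median of all genes lay at -0.10 for NRAS and at -0.13 for both against empty, and the changes given here are relative to the TMM scale. It turned the split of calls over all genes from 1868 higher and 1708 lower to 1379 and 2265 with NRAS, from 2282 and 2180 to 1656 and 2908 with both, and, for both against SETBP1, to 1720 and 2888. Of the set's calls it lost Ccnd2 in the first, Ccnd2 in the second, and Cdk6 and Cdkn2d in the last.

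The deviation of SETBP1 replicate 3 went with transcript length over the whole library, and less closely among these genes. Its log2 level minus the mean of SETBP1 replicates 1 and 2 had a median of 0.23 over the 3666 genes with the shortest transcripts (294 to 2355 bases), 0.02 over the middle 3664 and -0.43 over the 3663 with the longest (from 4007 bases). Cdk6, with a longest transcript of 11525 bases, deviated by -0.97, Cdkn1b (4552) by -0.85, Ccnd1 (3740) by -0.75 and Ccnd2 (6330) by -0.45. The short transcripts of Cdkn1a (2080 bases) and Ccnd3 (2113) deviated by 0.56 and 0.41, and Cdk4 (2053), Cdkn2d (1423) and Cdkn2c (2471) by 0.13, 0.10 and -0.08. For the first 6 of these genes the deviation was larger than the log2 change of SETBP1 against empty, and for Cdk4, Cdkn2d and Cdkn2c it was smaller. What set that library apart was not tested.

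**Figure D4:**
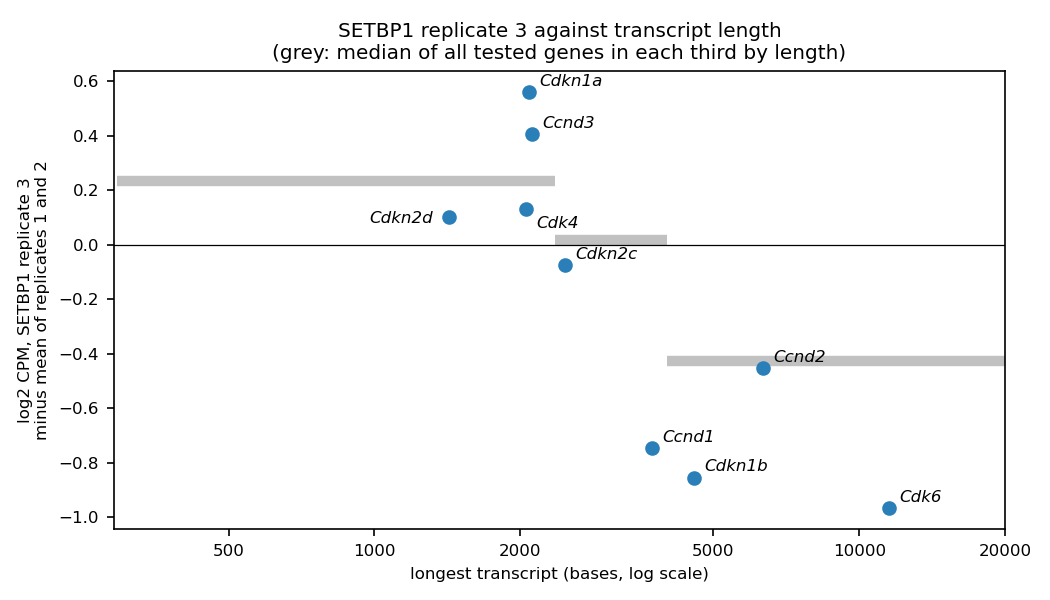
Log2 level of SETBP1 replicate 3 minus the mean of replicates 1 and 2 (vertical axis) against the longest annotated transcript (bases, log axis, which ends before the few longest genes) for the tested genes, with the 9 genes of the set named. The long Cdk6 and Cdkn1b lie at -0.97 and -0.85, and the short Cdkn1a at 0.56.

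Other genes of the same step of the cell cycle were counted from lists. Of 29 other genes of the G1 to S machinery, 7 were called higher and 2 lower with NRAS against empty (median log2 change 0.07), where 17.0% and 15.5% of all genes were. Besides Cdkn2b, Ccne1, the cyclin E1 that drives Cdk2, rose by 0.68 (SE 0.10; adjusted p = 0.000119), E2f5, a repressive E2F, rose by 0.83 and Tfdp2, a dimer partner of the E2Fs, fell by 0.74. With both against SETBP1, 8 were higher and 3 lower (median 0.10), where 20.9% and 21.5% of all genes were. Ccne1 (0.75) and Ccne2 (0.71) were among those that rose. SETBP1 alone gave 2 higher and 6 lower of 29 (median -0.09), where 8.31% and 6.55% of all genes were. Those that fell included Rb1, the retinoblastoma gene (-0.77, SE 0.16, adjusted p = 0.00896), the activator kinase Cdk2 (-0.30) and the cyclin Ccna2 (-0.27). With both against empty 7 were higher and 2 lower, where 20.8% and 19.8% of all genes were. Without SETBP1 replicate 3 these were 9 and 5, where 3012 and 2957 of 11112 genes were. None of the 29 was called for both against NRAS, where 1.91% of all genes were, and 1 had an unadjusted p under 0.05.

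E2F target genes, which the retinoblastoma protein holds down until the D-type cyclins act, were called almost only upward where NRAS was added. Of 23, 9 were called higher and 0 lower with NRAS against empty, where 17.0% and 15.5% of all genes were. Of the 23, 21 had a positive change, and the median was 0.24. Rrm2, a ribonucleotide reductase subunit, stood at 518 to 542 normalised CPM with empty vectors, 504 to 581 with SETBP1, 697 to 730 with NRAS and 683 to 759 with both. It rose by 0.42 with NRAS (SE 0.07; adjusted p = 0.000516), beside Mcm10 (0.51), Cdk1 (0.40) and Mybl2 (0.43). With both mutants 10 were higher and 0 lower than with empty vectors (median 0.21), where 20.8% of all genes were higher. Against SETBP1 10 were higher and 1, Tk1, lower (median 0.22), where 20.9% and 21.5% of all genes were. Without SETBP1 replicate 3 the numbers over empty were 14 higher and 1 lower with NRAS, where 2714 and 2510 of 11112 genes were. With both they were 14 higher and 0 lower, where 3012 and 2957 genes were. With library-size scaling 6 were higher and 1 lower with NRAS (median 0.14), where 1379 and 2265 of 10993 genes were. With both 5 were higher and 2 lower (median 0.08), where 1656 and 2908 genes were. Without empty replicate 1 or replicate 3 of the both group 6 were higher with both. In these 2 fits 1861 of 11116 and 1947 of 11146 genes were higher. SETBP1 alone gave 2 higher and 2 lower (median 0.00), where 8.31% and 6.55% of all genes were. Tk1, thymidine kinase, rose by 0.56 (adjusted p = 0.00455) and Gins2 by 0.48, while Mcm4 and Rrm1 fell by 0.33 and 0.28. None was called by edgeR for both against NRAS, where 1.91% of all genes were, with 2 at an unadjusted p under 0.05 and a median of -0.06. The summed late neutrophil and progenitor markers were lower in the same libraries, as given above, but not every gene was. With NRAS against empty, 2 of 11 late neutrophil genes were called higher and 5 lower. Of 8 progenitor genes 1, Cd34, was called higher and 5 lower, where 17.0% and 15.5% of all genes were. With both these numbers were 0 and 8, and 1 and 5, where 20.8% and 19.8% were. The part of these cell types was not tested.

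**Figure D5:**
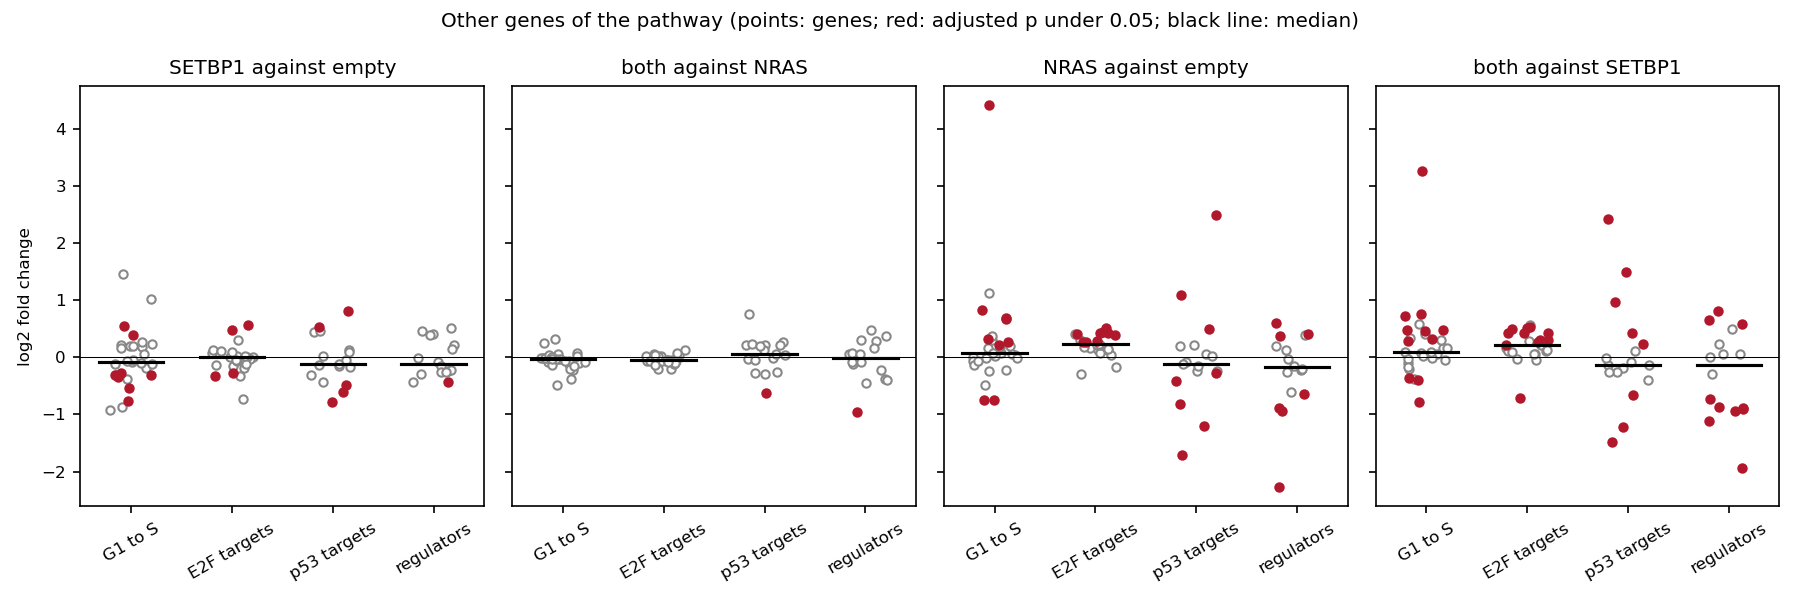
Log2 fold change (vertical axis) of each tested gene of the 4 lists in 4 comparisons, with called genes in red and the median as a black line. The E2F targets have medians of 0.24 for NRAS against empty and 0.22 for both against SETBP1, while the p53 targets and the regulators of the inhibitors hold called genes in both directions.

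The rise in Cdkn1a was set beside 17 other p53 target genes, which did not move in 1 direction. With NRAS 3 were higher and 5 lower (median -0.12), where 17.0% and 15.5% of all genes were. With both 5 were higher and 6 lower (median -0.20), where 20.8% and 19.8% of all genes were, each against empty. Mdm2, the ubiquitin ligase that restrains p53, rose by 1.09 with NRAS (SE 0.07; adjusted p = 1.3e-07) and by 1.36 with both. Plk2, a stress-responsive kinase, stood at 9.04 to 12.1 normalised CPM with empty vectors, 56.4 to 60.1 with NRAS and 89.6 to 109 with both, and rose by 2.48 and 3.24. Trp53inp1, which promotes p53-dependent cell death, fell by 1.70 and 2.00, and the death receptor Fas fell by 1.21 with NRAS. With SETBP1 2 were higher and 3 lower, where 8.31% and 6.55% of all genes were: Bax, which promotes cell death, and Plk2 were called at 0.53 and 0.81, and Btg2 and Ccng1 fell by 0.61 and 0.49. In both Bax (240, 288 and 396 normalised CPM) and Plk2 (14.5, 13.7 and 27) SETBP1 replicate 3 was the highest of its group, and without it the changes were 0.31 (adjusted p = 0.0319) and 0.43 (adjusted p = 0.0593). All 13 genes of the 4 lists named for SETBP1 against empty (those above, with E2f8 at -0.54 and Gfi1 below) lost their call when only these 2 groups were fitted (adjusted p from 0.0521 to 0.158). In that fit 1.03% of all genes were called, against 14.9% in the main fit. Of the 13 genes 11 lost it without empty replicate 3, where 3.5% of all genes were called, and 9 without empty replicate 1, where 4.44% were. For both against SETBP1 5 of the 17 were higher and 3 lower, where 20.9% and 21.5% of all genes were. Btg2, an antiproliferative gene, alone was called for both against NRAS, where 1.91% of all genes were. Its change was -0.62 (SE 0.14; adjusted p = 0.0433), and that call was lost in 9 of 12 fits with a library left out.

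Of 17 transcription factors and other regulators known to act on the inhibitor genes, 16 were tested. With NRAS against empty 3 were higher and 4 lower (median -0.18), where 17.0% and 15.5% of all genes were. With both 4 were higher and 5 lower (median -0.28), where 20.8% and 19.8% of all genes were, so that the higher counts lie near the share of all genes. Gfi1, a repressor that includes Cdkn1a among its targets, stood at 160 to 190 normalised CPM with empty vectors, 113 to 139 with SETBP1, 85.8 to 97 with NRAS and 64.5 to 72 with both. It fell by 0.44 with SETBP1 (adjusted p = 0.0119), 0.94 with NRAS (adjusted p = 7.65e-06) and 1.33 with both (adjusted p = 1.75e-07), and no groups overlapped. Cebpa, a granulocyte factor that restrains cell division, fell by 0.63 with NRAS and by 1.08 with both. Klf4, an activator of Cdkn1a, fell by 2.27 with NRAS, and Klf6, another activator of it, rose by 0.42 with NRAS and 0.58 with both. Cebpe, which acts late in granulocyte maturation, was the only one called for both against NRAS, where 1.91% of all genes were. Its change was -0.96 (SE 0.20; adjusted p = 0.0243), a call lost in 6 of 12 fits with a library left out. For both against SETBP1 3 were higher and 7 lower, where 20.9% and 21.5% of all genes were. Gfi1, Cebpa and Cebpe are also factors of neutrophil formation. Their levels and the sum of the late neutrophil markers were lowest with both mutants. Single markers differed: Mmp8 was lowest with NRAS (113 to 129 normalised CPM), and Mmp9 (14.6 to 38.3) and Il1r2 (38.2 to 71.7) with SETBP1. A link between them was not tested.

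The genes whose pattern was most like that of Ccnd1 and of Cdkn1a were found by the root mean square (RMS) difference of centred log2 CPM over the 12 libraries. For Ccnd1, whose own RMS deviation was 1.57, they were AA467197 (0.286), Rgs8 (0.303) and Cdk18 (0.32). The mean log2 CPM of Cdk18 was 4.72 and 4.84 with empty vectors and SETBP1 and 7.65 and 7.99 with NRAS and both. For Cdkn1a (own RMS 0.512) they were Rbms1 (0.146), Arf6 (0.164) and Clic1 (0.181). Likeness here is a description over libraries that share their groups, and Rgs8 was near the counting limit without the NRAS vector, with mean log2 CPM of -1.97 and -1.77.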

How the data were processed

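Poly(A) or other selection, the counter, the annotation, the strand setting and the handling of multimapping reads are not given in the sources used here. The single deposited table holds raw counts for each gene symbol, is described as filtered with no filter stated, and 5080 of its 19910 rows had no count. STAR, DESeq2 and mm10 are named in the submitters' processing notes, with no role given. Counts of close paralogs or overlapping genes may be shared. The deposited counts were analysed in R 4.3.3 with edgeR 4.0.16: filterByExpr (minimum count 10, minimum total 15), which kept 10993 genes with 99.9% of counts, TMM scaling, 4 group means over 12 libraries, and quasi-likelihood F tests, two-sided, adjusted by Benjamini-Hochberg over all genes tested. The common biological coefficient of variation was 0.131. Depth was 7085894 to 8864919 counts a library, which leaves genes of a few counts imprecise.

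All 10 genes of the set are named, with up to 4 called genes per list and comparison (smallest adjusted p) and the 3 genes most alike for each of the 3 most variable genes of the set, of which the result for Cdkn1b is not reported here. These genes and the lists were chosen with earlier results of these data known. Lengths and coordinates are from GENCODE M21 (GRCm38). DESeq2 1.42.0, limma-voom (limma 3.58.1), other scalings and filters, a replicate block, only the groups compared and each library left out were tried, and removal of a length trend was added after the data were seen. The steps were tested on simulated counts.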

Additional observations from a re-analysis of the deposited data

How the results depend on the processing

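Of 1125 values of the set's genes under other settings, 1014 kept their direction and their side of the threshold, 61 lost a call, 25 gained one and 25 turned direction, and of 1323 values of the other named genes 62 lost a call. The other genes were named because they were called with the smallest adjusted p, so none could gain a call. Their numbers therefore cannot be compared with those of the set, which was taken whether called or not. The number of the set's genes called for SETBP1 against empty was 1 with median-ratio scaling or only the groups compared (reported: 2), and 1 to 3 with a library left out. Of all genes 14.9%, 1.03% and 3.5% to 28.7% were called in these fits. With a library left out the set's number was 2 to 6 for NRAS against empty (5), where 24.1% to 47% of all genes were called. It was 3 to 5 for both against empty (4), where 32.8% to 53.7% were. For both against NRAS (1) it was 2 with library-size scaling, 3 with only the groups compared, 2 with the length trend removed and 0 to 2 with a library left out. Of all genes 2.22%, 8.37%, 2.77% and 0.834% to 7.52% were called in these fits. For both against SETBP1 (7) the set's number was 3 with only the groups compared and 4 to 7 with a library left out, where 28.9% and 33% to 46.5% of all genes were called.

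The 25 turned values included an interaction of 0.285 for Cdkn1b and 0.144 for Ccnd1, none of them called. By setting, Ccnd3 for both against empty was -0.0747 with library-size and -0.0158 with upper-quartile scaling, and Cdk6 for both against NRAS was -0.0202 and -0.00066 with them. With the length trend removed, Cdk6 was 0.102 for SETBP1 against empty, and the interaction was -0.0160 for Ccnd2 and -0.0285 for Cdk6. Limma-voom gave an interaction of 0.0156 for Cdkn1b. Over the fits with a library left out, the log2 change for SETBP1 against empty ran from -0.294 (without SETBP1 replicate 1) to 0.125 (without SETBP1 replicate 3) for Cdk6 and from -0.231 (without SETBP1 replicate 3) to 0.128 (without SETBP1 replicate 1) for Cdkn1a. For both against NRAS it ran from -0.0390 to 0.0659 for Cdk6 and from -0.0713 to 0.556 for Cdkn1b. The interaction ran from -0.303 to 0.144 for Ccnd1, -0.0774 to 0.164 for Ccnd3, -0.116 to 0.303 for Cdk6 and -0.370 to 0.285 for Cdkn1b, with the first bound of Ccnd1, Cdk6 and Cdkn1b and the last of Ccnd3 from the fit without SETBP1 replicate 3. The cause was not tested. The interaction needs all 4 groups, so it was not fitted on fewer.

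With the longest transcript length the share of Ccnd1 among D-type cyclins was 0.853%, 1.35%, 5.57% and 7.69% in the empty, SETBP1, NRAS and both groups, and that of Cdk6 in Cdk4 plus Cdk6 was 1.99%, 1.36%, 2.56% and 2.33%, since these lengths differ most for Ccnd2, Ccnd3 and Cdk6. Over all genes the number called for SETBP1 against empty (1633) was 110 with only the groups compared, 3191 without SETBP1 replicate 1 and 390 without empty replicate 3. For both against NRAS (210) it was 883 with only the groups compared, 836 without SETBP1 replicate 3 and 93 without replicate 1 of the both group. For the interaction (5) it was 81 by DESeq2, 110 without SETBP1 replicate 3 and 1 without empty replicate 1 or 3.

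Replicate numbers were fitted as a block, although nothing says they pair the samples: of 18 pairs of libraries that share a number, 1 had deviations correlated above 0.1, and 1 of 12 libraries correlated best with its own number. With the replicate block the set's genes called numbered 2 for SETBP1, 5 for NRAS and 4 for both, each against empty, 1 for both against NRAS, 7 against SETBP1 and 0 for the interaction, the same as without it. Of all genes 10.7%, 30.4%, 38.9%, 1.49%, 40.1% and 0.0546% were called, in that order. Among the 7 for both against SETBP1, Cdk4 was lost (adjusted p = 0.0777) and Cdkn1b gained (0.0499). Depth limited Cdkn2a and Cdkn1b most.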
